A study of Mus musculus with 12 samples.

Results

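Messenger RNA levels of 10 genes of the hypoxia response and of glycolysis were followed in mouse adult fibroblasts (MAFs), which are primary cultures from the ears of adult female mice. The genes were chosen by name, with no rule on their values, as Hif1a, Epas1, Egln3, Ankrd37, Slc2a1, Hk2, Pgk1, Ldha, Pdk1 and Bnip3. These genes and the gene lists used below were chosen with earlier results of these data known. The shares of all genes given beside their counts are therefore a description only. The members are 10 of the 49315 genes in the count tables, and all 10 were among the 17416 genes with enough counts to be tested. Cells came from C57BL6/J mice (WT) or from Bmal1-/- mice (KO), which lack the circadian clock factor BMAL1. Of each genotype, the controls had a sham irradiation, and the senescent cells had 20 Gy of X-rays and were then kept until they had become senescent. The time in culture of the controls is not given, so a difference in that time cannot be told apart from irradiation. Every culture, whatever its genotype or dose, was grown in DMEM with serum at 3% O2, was given 100 nM dexamethasone, a glucocorticoid that synchronises the clock, for 2 h, and was collected 12 h later. RNA-seq was done on 3 libraries per group, 12 in all, and the labels do not say whether the libraries of a group came from separate cultures or animals, so p-values measure the spread between these libraries only. All cells were therefore seen at a single time after synchronisation and a single, low oxygen tension.

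When oxygen is scarce, cells stabilise the alpha subunits of hypoxia-inducible factor (HIF), which pair with ARNT on DNA and switch on genes for glucose uptake, glycolysis and survival. Hif1a and Epas1 encode the main alpha subunits. EGLN3 is a prolyl hydroxylase that uses oxygen to mark them for destruction, and ANKRD37 is an ankyrin repeat protein whose gene is a common hypoxia marker. SLC2A1 (GLUT1) brings glucose into the cell, HK2 phosphorylates it, PGK1 makes ATP further down the pathway, and LDHA turns pyruvate into lactate. PDK1 inhibits pyruvate dehydrogenase and so keeps pyruvate out of mitochondria, and BNIP3 is a mitochondrial outer membrane protein of mitophagy. HIF and BMAL1 belong to the same family of bHLH-PAS factors and recognise related DNA words: ACGTG lies at the core of a HIF response element, and CACGTG is the E-box that BMAL1 binds.

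Promoter sequence is shown because both words occur in it for these genes. RefSeq windows from 250 bases before to 50 bases after each start site (build GRCm38.p6) matched 9 of the 10 genes (not Epas1), with 11 windows in all. On either strand, ACGTG was found in windows of 8 of the 9 genes, against 19.6% of all 32851 promoter windows and 24.0% of the 15376 windows of tested genes. GCGTG, the other common core of the response element, was found for 5 of the 9 genes, against 32.4% and 47.8%. CACGTG, which contains ACGTG on both strands, was found for 3 genes, Hif1a, Ldha and Bnip3, against 7.15% and 9.30%. The percentages count windows, whereas the members are counted as genes with a match in any window. Ldha and Pdk1 had 2 windows each, so the units differ. The first Pdk1 window held GCGTG at -78 and at -2, the second did not hold it, and neither held ACGTG. A match describes these letters only, not a bound site. The stretches below, which hold every ACGTG match upstream of the start site in the first window with a match of each gene, run 5′ to 3′ on the gene's strand, with ACGTG (read as CACGT where it lies on the other strand) or CACGTG in capitals:
Hif1a: cacagacaagCACGTGagcggggcag
Hif1a: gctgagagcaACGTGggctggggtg
Slc2a1: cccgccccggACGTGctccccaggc
Hk2: ccacggaacaCACGTcccaactctg
Hk2: tgagcacatcCACGTcactgtccgg
Pgk1: gtcgtgcaggACGTGacaaatggaa
Pgk1: atggaagtagCACGTctcactagtc
Ldha: tgtcgcagcaCACGTGgagccactct
Ldha: gcccagcctaCACGTGggttcccgca
Ldha: tgggttcccgCACGTccgctgggct
Bnip3: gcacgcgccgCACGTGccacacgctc
Egln3: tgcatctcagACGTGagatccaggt
Ankrd37: cccagcagtACGTGcctagctcgg
Ankrd37: gtgtttgggtACGTGa

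In GENCODE gene models of GRCm38 the Hif1a stretches (chr12:73907722-73907747 and chr12:73907787-73907811, plus strand), the Ldha stretches (chr7:46845649-46845674, chr7:46845746-46845771 and chr7:46845760-46845784, plus strand) and the first Ankrd37 stretch (chr8:46000077-46000100, minus strand) were intronic, because longer transcripts start upstream. The second Ankrd37 stretch (chr8:45999851-45999866, minus strand) was exonic. The stretches of Hk2 (chr6:82774666-82774690 and chr6:82774492-82774516, minus strand), Pgk1 (chrX:106186940-106186964 and chrX:106186959-106186983, plus strand), Bnip3 (chr7:138909599-138909624, minus strand) and Egln3 (chr12:54204089-54204113, minus strand) lay outside the gene, just upstream. The Slc2a1 stretch (chr4:119108699-119108723, plus strand) crossed the start of the gene model, with 13 of its 25 bases in the first exon.

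Libraries held 23923030 to 31736083 counts. Levels are given in CPM, the counts of a gene per 1000000 counts of a library scaled by the TMM method, and 3 counts, the floor used for detection, equalled 0.0945 to 0.125 CPM, so every member stood above the floor in every library. The floor covers counting error only, whereas each ± value is an SE of the fit or an SD over libraries. Arntl, the gene of BMAL1, was at 29.8 to 33.2 CPM in WT control, 35.2 to 37.4 in WT senescent, 11.8 to 15.2 in KO control and 25.3 to 27.5 in KO senescent libraries. The KO libraries were below the WT libraries of the same state, although reads remained. Counts are per gene, so which exons these reads came from was not tested. The log2 fold change of Arntl in senescent over control cells was 0.20 in WT and 1.02 in KO. The difference of these responses was 0.82, and all 3 values had an adjusted p below 0.05. The counts of the genotypes came as separate tables, so a difference in handling cannot be told apart from genotype in a comparison of KO with WT, whereas the interaction is not affected by a shift that a genotype's libraries all carry. A shift carried by a single state of a genotype would enter the interaction, and this was not tested.

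Fibroblast genes were abundant in every library, with the 10 markers listed summing to 38700 to 71980 CPM. Markers of cartilage cells were also abundant and moved with both irradiation and genotype. The 12 chondrocyte markers summed to 8052 to 10070 CPM in WT control, 2247 to 2597 in WT senescent, 5319 to 7397 in KO control and 723 to 837 in KO senescent libraries. Of the 11 tested, 10 fell and 1, Comp, rose in WT senescent cells, 10 fell in KO senescent cells, and 11 were lower in senescent cells of KO than of WT. Col2a1 and Acan, which define cartilage, were at 4523 to 5563 and 1901 to 2310 CPM in WT control libraries, whereas Matn1 was at 0 there. Summed markers of keratinocytes (at most 24.7 CPM), macrophages (16.6), endothelium (8.95), melanocytes (14.1), skeletal muscle (59.9) and adipocytes (70.8) were low. The part of any of these cell types in the results below was not tested, and in bulk RNA fewer cells of a type cannot be told apart from less RNA per cell.

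The first question was how the 10 genes differed between senescent and control cells. In WT cells all 10 passed the test (adjusted p below 0.05), 9 of them lower and Epas1 higher in senescent cells, where 56.2% of all genes tested passed, 29.2% higher and 27.0% lower. In KO cells the same count was found, 1 higher and 9 lower, against 57.1% of all genes, 28.5% higher and 28.6% lower. With a further threshold of a log2 fold change beyond 1 either way (called), 1 gene was higher and 3 were lower in WT (background 17.4%, 11.6% higher and 5.90% lower), and 1 was higher and 4 lower in KO (18.8%, 11.2% and 7.58%). With total counts in place of TMM scaling, only Epas1 of the 4 remained called in WT, and with a library left out 4 to 6 genes were called in WT, the highest number without WT control replicate 1. DESeq2 found 10 genes past the adjusted threshold and 5 past both in WT, and 9 (not Hif1a) and 5 in KO. The median log2 fold change of the 10 genes was -0.82 in WT and -0.95 in KO, beside 0.0245 and -0.0028 for all genes tested. Libraries of control and senescent cells did not overlap for any of the 10 genes in WT (background 63.2%, 33.4% higher and 29.7% lower), and for 9 of them, all but Hif1a, in KO (61.6%, 30.8% in each direction). Summed over the 10 genes the level was 4113 to 4332 CPM in the WT control and 2181 to 2215 CPM in WT senescent libraries, and 4305 to 4725 CPM and 2327 to 2470 CPM in KO.

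**Figure D1:**
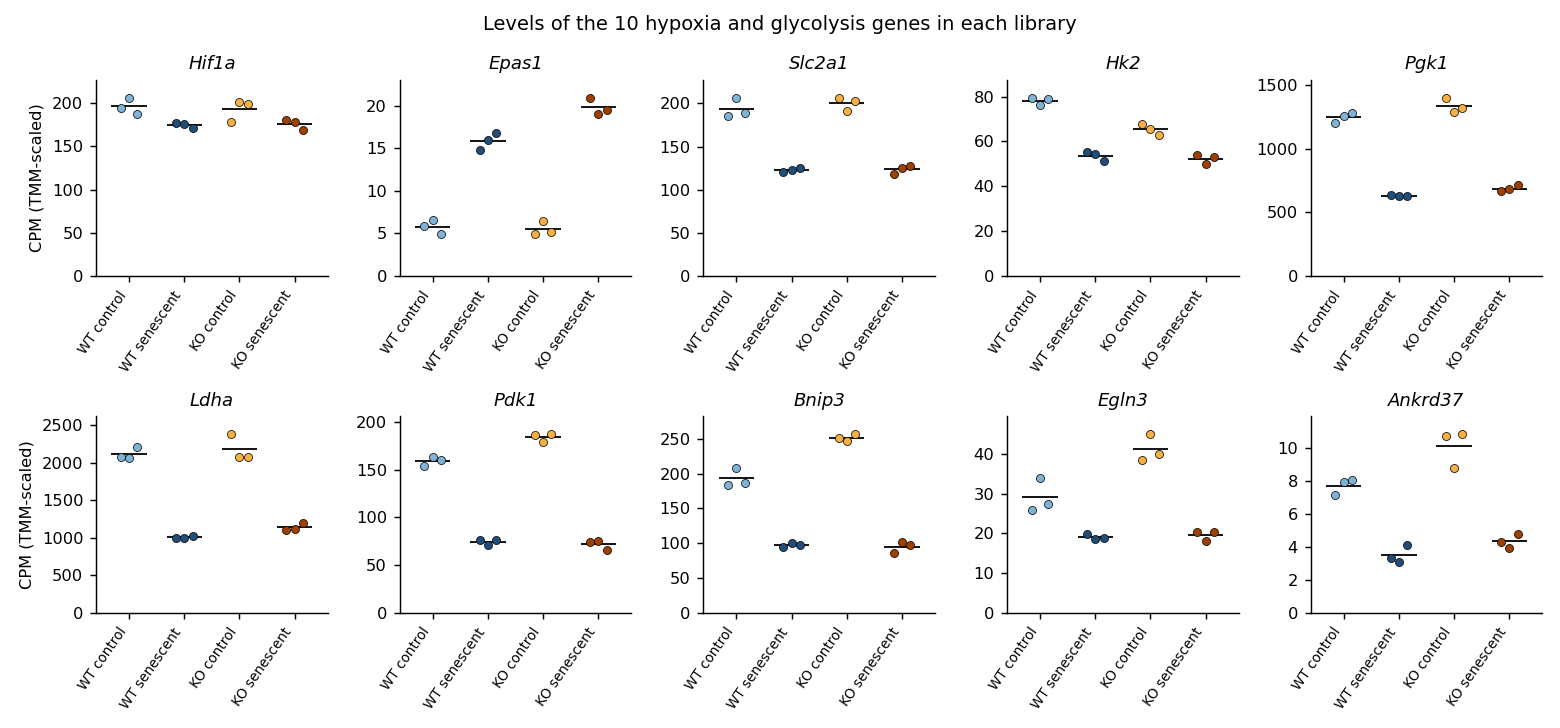
Level in CPM (y axis, from 0) of each of the 10 genes in the 12 libraries, with 3 points per group and a line at their mean. Epas1 is the gene that lies higher in senescent than in control libraries, Hif1a differs least, and for Bnip3, Egln3 and Pdk1 the KO control points stand above the WT control points while the senescent points overlap.

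Among the regulators, the alpha subunits moved in opposite directions. Epas1 (chr17:86753700-86833410, plus strand) was at 5.87, 6.56 and 4.92 CPM in the WT control and at 14.9, 16.0 and 16.8 CPM in WT senescent libraries. In KO cells it was at 4.96, 6.47 and 5.20 CPM in control and at 21.0, 19.1 and 19.5 CPM in senescent libraries. All senescent libraries of both genotypes were thus well above all control libraries. Epas1 rose 2.74-fold in WT (log2 fold change 1.45 ± 0.12 SE, adjusted p = 1.38e-09) and 3.57-fold in KO (1.83 ± 0.12, adjusted p = 2.46e-11).

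Hif1a (chr12:73901375-73947530, plus strand), the more abundant of the alpha subunits, changed little. It was at 195, 206 and 188 CPM in WT control against 177, 175 and 171 CPM in WT senescent libraries, and at 178, 201 and 199 CPM in KO control against 180, 179 and 169 CPM in KO senescent libraries. The KO groups overlapped. Hif1a fell by 11.1% in WT (log2 fold change -0.17 ± 0.05, adjusted p = 0.0123) and fell by 8.73% in KO (-0.13 ± 0.05, adjusted p = 0.0455), but scaled to total counts without the TMM factors neither change remained, with log2 fold changes of -0.0008 (adjusted p = 0.992) and 0.0214 (0.762). The WT change also failed the test without WT control replicate 2 (-0.13, adjusted p = 0.0627) or WT senescent replicate 3 (-0.16, 0.0509), and the KO change failed in 8 of the 12 fits with a library left out (-0.15 to -0.11, adjusted p 0.0544 to 0.164), with DESeq2 (-0.11, 0.094), with DESeq2 size factors (-0.11, 0.0805) and with the 6 KO libraries only (-0.12, 0.115). The exons of Hif1a share 148 bases with a gene on the same strand and 330 with another on the opposite strand.

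Levels of different genes were compared per kb of exon. The length covers all annotated exons of a gene, not the transcripts expressed, so such comparisons depend on the annotation. By this measure Hif1a stood at 33.3 ± 1.6 (SD, n = 3) and Epas1 at 1.03 ± 0.15 CPM per kb in WT control cells. The ratio of Hif1a to Epas1 per kb was 32.5 ± 3.3 in WT control and 10.5 ± 0.8 in WT senescent cells, and 33.3 ± 3.5 and 8.41 ± 0.40 in KO. Hif1a transcripts therefore remained the more abundant in all 4 groups. Hif3a, the remaining alpha subunit, was near the floor, at 0.53 CPM or less in every library. The beta subunit gene Arnt fell a little in WT (log2 fold change -0.20 ± 0.05, adjusted p = 0.00225) and in KO (-0.34 ± 0.05, adjusted p = 8.9e-06), while its paralog Arnt2 rose by 0.96 ± 0.07 in WT (adjusted p = 5.9e-11) and by 0.26 ± 0.07 in KO (adjusted p = 0.00185).

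Egln3 (chr12:54178981-54203860, minus strand), a hydroxylase that both restrains HIF and is induced by it, fell in both genotypes. It was at 25.8, 33.9 and 27.3 CPM in the WT control and 19.9, 18.6 and 18.9 CPM in WT senescent libraries, and at 38.3, 44.9 and 40.1 CPM in KO control and 20.3, 18.0 and 20.4 CPM in KO senescent libraries. Control libraries were above senescent libraries throughout, and the KO control libraries were the highest. It fell by 34.1% in WT (log2 fold change -0.60 ± 0.09, adjusted p = 1.26e-05) and fell by 52.4% in KO (-1.07 ± 0.09, adjusted p = 2.42e-09). Its relatives differed. Egln1, the main HIF hydroxylase, fell by 0.58 ± 0.05 on the log2 scale in WT (adjusted p = 4.58e-09) and fell by 0.48 ± 0.05 in KO (adjusted p = 7.5e-08), whereas the log2 fold change of Egln2 was 0.11 ± 0.07 in WT (adjusted p = 0.156) and 0.03 ± 0.07 in KO (0.701). Vhl, the ubiquitin ligase subunit that binds hydroxylated HIF, fell by 0.59 ± 0.07 in WT (adjusted p = 8.22e-07) and fell by 0.57 ± 0.07 in KO (adjusted p = 1.09e-06).

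Of the 17 genes listed as HIF subunits, hydroxylases and partners, which include Hif1a, Epas1 and Egln3, 2 were higher and 6 lower in WT senescent cells, and 3 were higher and 7 lower in KO, so 8 and 10 of the 17 passed where 56.2% and 57.1% of all genes did. The list median of the log2 fold change was -0.07 in WT and -0.09 in KO. This list turned with the scaling: with total counts 4 were higher and 4 lower in WT and 7 higher and 4 lower in KO, with medians of 0.10 and 0.06. Besides Hif1a, Hif1an, a hydroxylase that blocks HIF activity, changed sign in KO.

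Ankrd37 (chr8:45996902-46005707, minus strand) was, after Epas1, the lowest of the 10 genes in WT control cells per length, at 5.02 ± 0.32 CPM per kb. It was at 7.16, 7.94 and 8.08 CPM in the WT control and 3.30, 3.10 and 4.13 CPM in WT senescent libraries, and at 10.8, 8.82 and 10.9 CPM in KO control and 4.32, 3.94 and 4.80 CPM in KO senescent libraries. Control and senescent libraries did not overlap in either genotype. It fell by 54.7% in WT (log2 fold change -1.14 ± 0.15, adjusted p = 1.28e-06) and fell by 57.0% in KO (-1.22 ± 0.14, adjusted p = 3.15e-07). Its exons share 406 bases with Ufsp2 and Lrp2bp on the opposite strand, whose log2 fold changes were -0.47 and -0.23 in WT and -0.39 and -1.31 in KO, and since the strand setting of the counting is not given, reads of these bases may not be told apart.

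The genes of glucose entry and capture, Slc2a1 and Hk2, fell in both genotypes. Slc2a1 (chr4:119108711-119137983, plus strand) was at 185, 206 and 189 CPM in the WT control and 121, 122 and 125 CPM in WT senescent libraries, and at 207, 192 and 203 CPM in KO control and 118, 125 and 128 CPM in KO senescent libraries. The values of the genotypes nearly coincided in each state. Slc2a1 fell by 36.4% in WT (log2 fold change -0.65 ± 0.05, adjusted p = 1.24e-09) and fell by 38.3% in KO (-0.70 ± 0.05, adjusted p = 3.96e-10). Per kb it exceeded the other glucose transporter Slc2a3 by a factor of 100.0 ± 20.4 in WT control and 46.4 ± 5.8 in WT senescent cells, and Slc2a3 itself, at 3.16 to 6.14 CPM, rose by 0.43 ± 0.17 in WT (adjusted p = 0.0379) and by 0.42 ± 0.17 in KO (adjusted p = 0.0445).

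Hk2 (chr6:82725025-82774454, minus strand), the inducible hexokinase, was at 79.6, 76.2 and 79.0 CPM in the WT control and 55.4, 54.3 and 51.2 CPM in WT senescent libraries. In KO cells it was at 67.9, 65.7 and 62.9 CPM in control and 53.8, 50.1 and 52.9 CPM in senescent libraries. The KO control libraries were below all WT control libraries and above all senescent libraries. Hk2 fell by 31.4% in WT (log2 fold change -0.54 ± 0.05, adjusted p = 2.79e-08) and fell by 20.2% in KO (-0.33 ± 0.05, adjusted p = 3.07e-05). Hk1, the constitutive hexokinase, had log2 fold changes of 0.01 ± 0.05 in WT (adjusted p = 0.849) and 0.09 ± 0.05 in KO (0.107). The ratio of Hk2 to Hk1 per kb was thus 0.67 ± 0.04 in WT control and 0.45 ± 0.02 in WT senescent cells, and 0.54 ± 0.03 and 0.40 ± 0.02 in KO.

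Per kb the most abundant of the 10 genes were Pgk1 (555 ± 18 CPM per kb in WT control cells) and Ldha (639 ± 24), and both fell. Pgk1 (chrX:106187100-106203699, plus strand) was at 1202, 1254 and 1281 CPM in the WT control and 632, 625 and 631 CPM in WT senescent libraries, and at 1400, 1289 and 1321 CPM in KO control and 663, 684 and 710 CPM in KO senescent libraries. Ldha (chr7:46841475-46855627, plus strand) was at 2075, 2062 and 2208 CPM in the WT control and 993, 996 and 1023 CPM in WT senescent libraries, and at 2381, 2071 and 2082 CPM in KO control and 1107, 1117 and 1202 CPM in KO senescent libraries. For both genes every control library was far above every senescent library. Pgk1 fell by 49.5% in WT (log2 fold change -0.99 ± 0.05, adjusted p = 3.54e-13) and fell by 48.7% in KO (-0.96 ± 0.05, adjusted p = 4.5e-13). Ldha fell by 52.5% in WT (-1.07 ± 0.06, adjusted p = 9.28e-13) and fell by 47.6% in KO (-0.93 ± 0.06, adjusted p = 8.01e-12). Each has 2 named pseudogenes, and since only uniquely mapped reads were counted the levels of such genes, Gapdh and other glycolytic genes included, are uncertain. Pgk2, the testis form of PGK1, had no count in any library.

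Most other glycolytic enzyme genes were also lower in senescent cells. Of 25 enzyme genes listed, which include Hk2, Pgk1 and Ldha, 21 were tested. In WT 14 were lower, 3 higher and 4 did not pass (27.0% of all genes were lower and 29.2% higher), and in KO 15 were lower, 3 higher and 3 did not pass (28.6% and 28.5%). Leaving out the 3 members, 11 of 18 were lower and 3 higher in WT, and 12 lower and 3 higher in KO, with median log2 fold changes of -0.50 and -0.51. The list's summed counts were 1.55% of all counts in WT control, 0.968% in WT senescent, 1.60% in KO control and 1.01% in KO senescent cells. Tpi1, the triose phosphate isomerase, fell by 0.97 ± 0.05 in WT (adjusted p = 2.53e-12) and fell by 1.07 ± 0.05 in KO (adjusted p = 4.7e-13). Eno1 was at 3255, 3370 and 3405 CPM in the WT control and 1958, 1976 and 2060 CPM in WT senescent libraries. The largest falls in KO among enzymes at 5 CPM or more were those of Pgam2, the muscle form of phosphoglycerate mutase (-1.48 ± 0.11, adjusted p = 2.88e-10), and Aldoc (-1.25 ± 0.20, adjusted p = 9.78e-05). The genes that rose were Ldhb, Eno2 and, in WT, Pfkm (0.19 ± 0.07, adjusted p = 0.0197) and, in KO, Eno3 (0.52 ± 0.17, adjusted p = 0.0155), which was named after its value was seen, being below 5 CPM. Eno2, the neuronal enolase, rose by 0.41 ± 0.16 in WT (adjusted p = 0.0384) and by 0.48 ± 0.16 in KO (adjusted p = 0.0198). With total counts 12 were lower and 5 higher in WT, and 14 lower and 4 higher in KO.

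**Figure D2:**
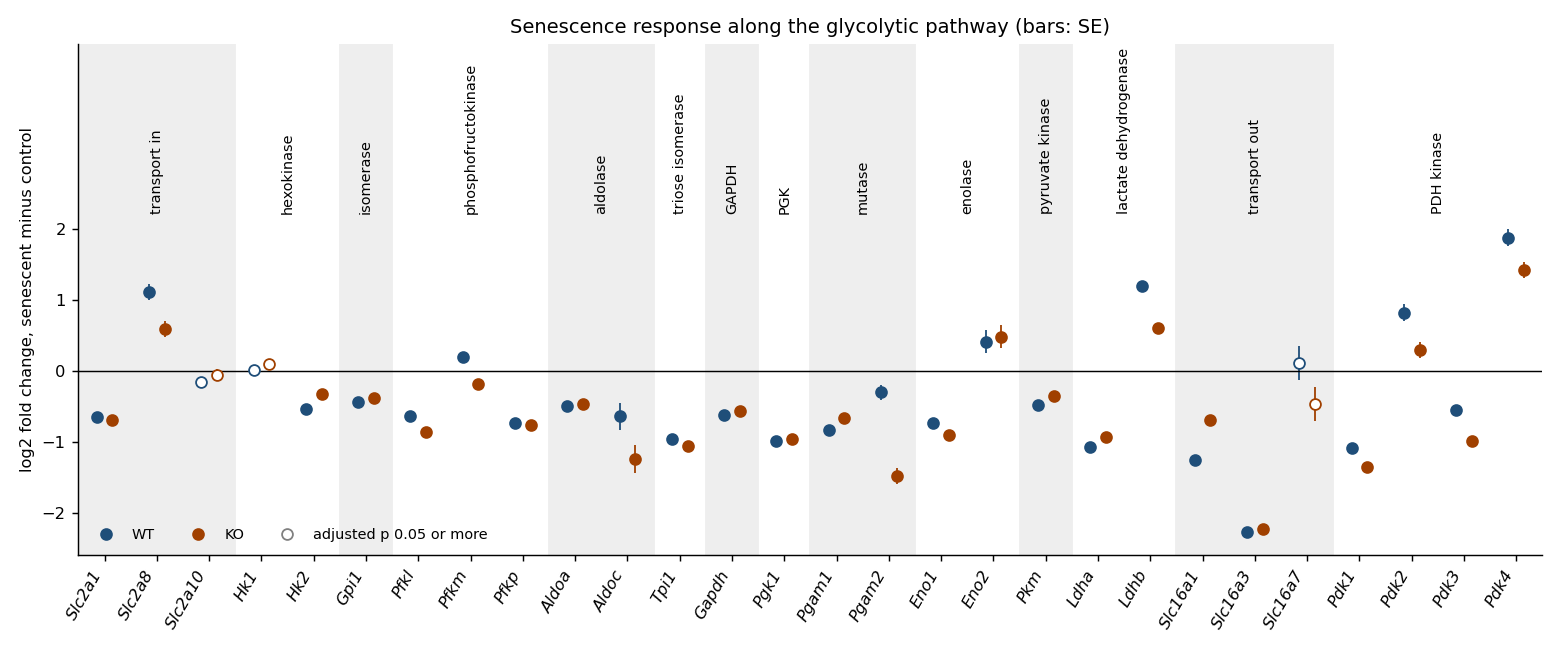
Log2 fold change of senescent over control cells (y axis, with SE bars) for WT and KO, for genes at 5 CPM or more on average, at each step from glucose transport (left) to the pyruvate dehydrogenase (PDH) kinases (right); filled points passed the test. Most points lie below 0 in both genotypes, lowest for Slc16a3, whereas Slc2a8, Eno2, Ldhb, Pdk2 and Pdk4 lie above 0.

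At the lactate step Ldhb rose where Ldha fell. Ldhb encodes the subunit that favours the conversion of lactate to pyruvate, and it was at 22.2, 25.5 and 22.0 CPM in the WT control and 51.8, 54.9 and 52.7 CPM in WT senescent libraries. In KO it was at 18.3, 20.0 and 19.7 CPM in control and 30.1, 30.4 and 27.8 CPM in senescent libraries. It rose in both genotypes, by 1.19 ± 0.07 on the log2 scale in WT (adjusted p = 8.22e-12) and by 0.60 ± 0.07 in KO (adjusted p = 4.33e-07), and the KO rise was smaller, with a difference of -0.59 ± 0.10 (adjusted p = 0.000416). The ratio of Ldha to Ldhb per kb went from 43.4 ± 4.6 in WT control to 8.97 ± 0.31 in WT senescent cells, and from 53.7 ± 7.0 to 18.5 ± 1.8 in KO, so the range in senescent libraries was 8.62 to 9.21 in WT and 17.4 to 20.5 in KO.

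The log2 fold change of the lactate exporter Slc16a3 was larger than that of any of the 10 genes. Slc16a3 (MCT4), which serves glycolytic cells, was at 411, 412 and 441 CPM in the WT control and 90.0, 80.4 and 91.5 CPM in WT senescent libraries, with log2 fold changes of -2.27 ± 0.06 in WT (adjusted p = 3.34e-17) and -2.23 ± 0.06 in KO (4.4e-17). Slc16a1 (MCT1) fell by 1.26 ± 0.07 in WT (adjusted p = 1.82e-12) and fell by 0.70 ± 0.07 in KO (2.38e-08). Of the 11 tested genes of glucose and lactate transport, Slc2a1 included, 3 were higher and 4 lower in WT and 3 higher and 3 lower in KO, so 7 and 6 passed where 56.2% and 57.1% of all genes did, with list medians of 0.11 and -0.16. Slc2a8, another glucose transporter, rose by 1.11 ± 0.12 in WT (adjusted p = 4.49e-08) and by 0.58 ± 0.11 in KO (adjusted p = 0.000145).

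Pdk1 (chr2:71873224-71903858, plus strand) fell in both genotypes and more so in KO. It was at 154, 163 and 160 CPM in the WT control and 76.6, 70.6 and 76.6 CPM in WT senescent libraries, and at 186, 179 and 187 CPM in KO control and 73.9, 74.7 and 66.1 CPM in KO senescent libraries. The KO control libraries were the highest, and the senescent libraries of the genotypes overlapped. It fell by 53.1% in WT (log2 fold change -1.09 ± 0.06, adjusted p = 6.38e-13) and fell by 61.2% in KO (-1.36 ± 0.06, adjusted p = 1.58e-14).

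Of the other kinases of pyruvate dehydrogenase, Pdk2 and Pdk4 rose and Pdk3 fell. Pdk4, the form induced by fasting and glucocorticoids, was at 9.01, 8.51 and 7.36 CPM in the WT control and 25.7, 32.5 and 33.2 CPM in WT senescent libraries, and at 10.8, 12.6 and 11.3 CPM in KO control and 27.0, 35.3 and 30.6 CPM in KO senescent libraries. It rose by 1.87 ± 0.12 in WT (adjusted p = 6.78e-11) and by 1.42 ± 0.11 in KO (adjusted p = 1.97e-09), and Pdk2 rose by 0.81 ± 0.12 in WT (adjusted p = 5.43e-06) and by 0.29 ± 0.12 in KO (0.0401). Pdk3 fell by 0.56 ± 0.06 in WT (adjusted p = 1.07e-07) and fell by 0.99 ± 0.06 in KO (1.61e-11). Every culture had received dexamethasone, so the levels of Pdk4 are those of cells given a glucocorticoid. Of the summed level of the 4 kinases per kb, Pdk1 made up 42.3% ± 0.2 in WT control and 24.6% ± 1.8 in WT senescent cells, and 45.1% ± 1.3 and 27.4% ± 2.1 in KO. Pdk4 made up 4.89% ± 0.56 and 22.1% ± 2.1 in WT, and 6.26% ± 0.44 and 26.2% ± 1.8 in KO. Pdk3 made up 46.2% ± 1.0 in WT control and 38.8% ± 0.8 in WT senescent cells, and 41.45% ± 0.49 and 32.6% ± 0.8 in KO. Its share thus fell in both genotypes, although it was the largest in WT control and in each senescent group.

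**Figure D3:**
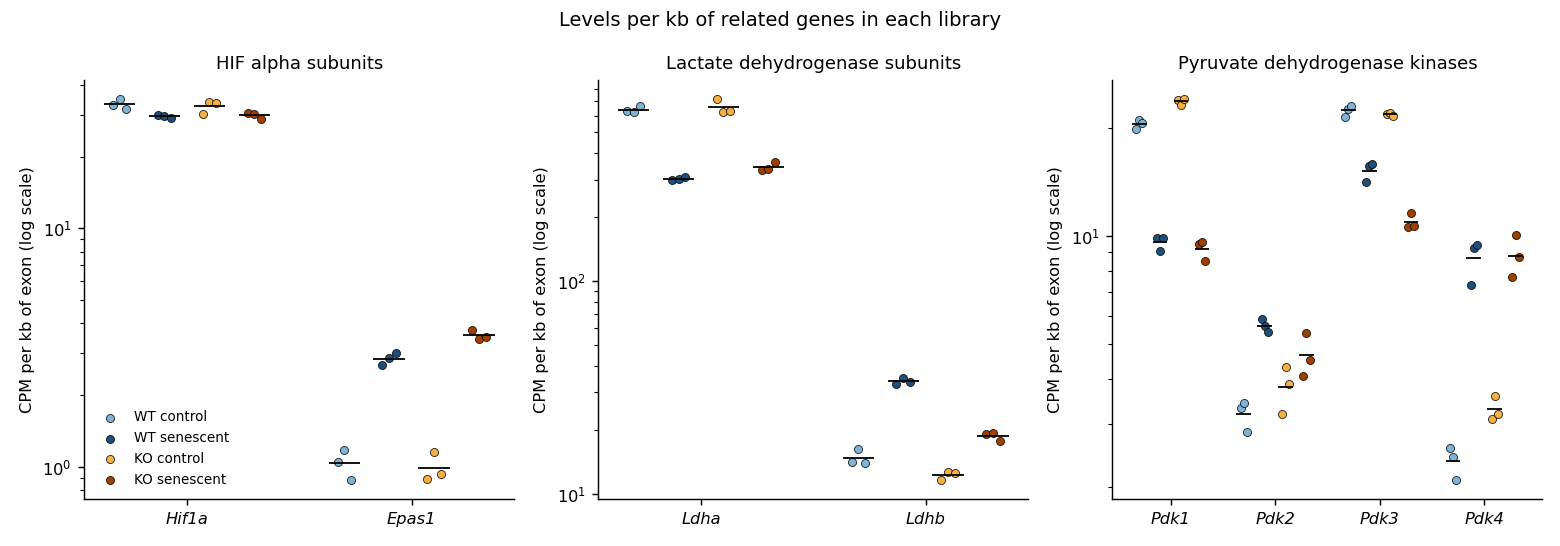
Levels in CPM per kb of exon (log axis) in each of the 12 libraries for the HIF alpha subunits, the lactate dehydrogenase subunits and the PDH kinases, with 3 points per group and a line at their mean. Pdk1 and Pdk4 are far apart in control cells and close in senescent cells, with a mean ratio of 8.72 and 1.12 in WT.

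Of the 19 tested genes that set the flux into and out of glycolysis, Pdk1 included, 5 were higher and 6 lower in WT and 6 higher and 7 lower in KO, so 11 and 13 passed where 56.2% and 57.1% of all genes did, with list medians of 0.01 and 0.07. With total counts 10 were higher and 5 lower in WT and 9 higher and 7 lower in KO. Pfkfb3, which makes the activator of phosphofructokinase, fell by 0.41 ± 0.07 in WT (adjusted p = 2.74e-05) and fell by 1.12 ± 0.07 in KO (adjusted p = 1.1e-11). Pdp1, a phosphatase that reactivates pyruvate dehydrogenase, rose by 0.87 ± 0.09 in WT (adjusted p = 3.59e-08), and in KO its log2 fold change was 0.17 ± 0.09 (0.0934). Pck2, the mitochondrial PEP carboxykinase, fell by 1.09 ± 0.06 in WT (adjusted p = 2.17e-12). It was also lower in senescent cells of KO, at 121.5 to 130.9 CPM in control and 60.05 to 69.13 CPM in senescent libraries.

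Bnip3 (chr7:138890836-138909519, minus strand) was at 184, 209 and 187 CPM in the WT control and 94.6, 99.7 and 97.0 CPM in WT senescent libraries, and at 251, 247 and 257 CPM in KO control and 85.2, 102 and 97.4 CPM in KO senescent libraries. The KO control libraries stood alone at the top, and the senescent libraries of both genotypes lay in the same range. It fell by 49.8% in WT (log2 fold change -0.99 ± 0.06, adjusted p = 1.86e-11) and fell by 62.3% in KO (-1.41 ± 0.06, adjusted p = 6.43e-14). Its relative Bnip3l (NIX), which also acts in mitophagy, had a log2 fold change of -0.09 ± 0.06 in WT (adjusted p = 0.217) and fell by 0.18 ± 0.06 in KO (adjusted p = 0.00995). Bnip3 exceeded Bnip3l per kb by a factor of 2.94 ± 0.0037 in WT control, 3.73 ± 0.16 in KO control, 1.57 ± 0.10 in WT senescent and 1.59 ± 0.09 in KO senescent cells.

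The next question was whether loss of BMAL1 changed the senescence response. By the interaction of genotype and state, the response of 4 of the 10 genes differed between genotypes (adjusted p below 0.05), 1 higher and 3 lower in KO, where 20.9% of all genes did, 9.24% higher and 11.7% lower. None of the 10 passed the threshold of 1 as well, against 3.66% of all genes; 5 had an unadjusted p under 0.05, and DESeq2 also found 4 past the adjusted threshold and 0 past both. Bnip3 fell more in KO, with a difference of -0.41 ± 0.09 on the log2 scale (adjusted p = 0.00212). Egln3 (-0.47 ± 0.13, adjusted p = 0.0142) and Pdk1 (-0.27 ± 0.08, adjusted p = 0.0163) also fell more in KO. Hk2 fell less in KO, with a difference of 0.22 ± 0.08 (adjusted p = 0.0499).

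The difference for Bnip3 passed in every fit with a library left out, at -0.47 to -0.34. That of Egln3 failed without WT control replicate 1 (-0.39, adjusted p = 0.0509) or KO control replicate 2 (-0.40, 0.051), that of Pdk1 failed without WT senescent replicate 3 (-0.26, 0.0507), and that of Hk2 failed in 9 of the 12 such fits (0.18 to 0.24, adjusted p 0.0596 to 0.151). For the other members the differences of the responses were 0.38 ± 0.17 for Epas1 (adjusted p = 0.119), 0.14 ± 0.08 for Ldha (0.217), -0.08 ± 0.21 for Ankrd37 (0.844), -0.04 ± 0.08 for Slc2a1 (0.738), 0.04 ± 0.08 for Hif1a (0.784) and 0.02 ± 0.07 for Pgk1 (0.86). Epas1 passed without KO control replicate 2 (0.51, adjusted p = 0.0485), and Ldha without KO control replicate 1 (0.21, 0.0296).

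**Figure D4:**
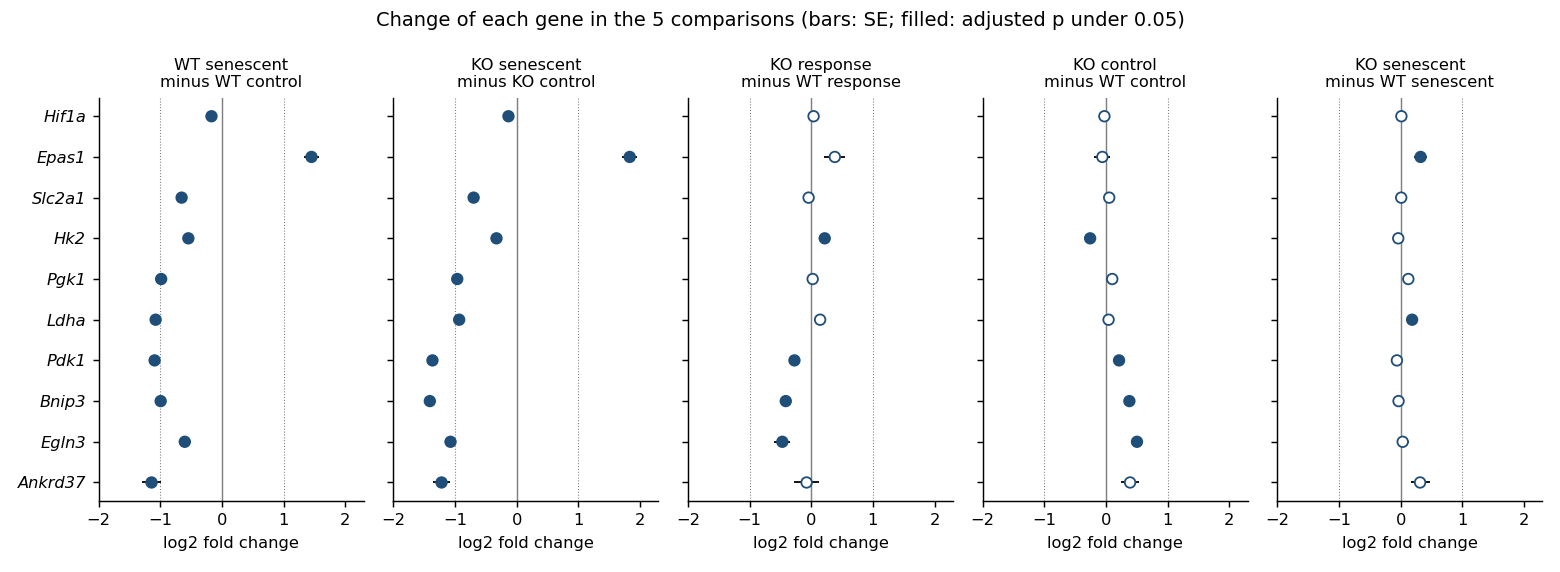
Log2 fold change (x axis, bars are SE) of the 10 genes in the senescence response of WT and of KO, the difference between these responses, and KO minus WT in control and in senescent cells; filled points passed the test and dotted lines mark -1 and 1. Bnip3, Egln3 and Pdk1 lie left of 0 in the difference of responses and right of 0 in control cells.

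Bnip3, Egln3 and Pdk1 also differed between the genotypes in control cells. Of the 10 genes, 4 passed, 3 higher and 1 lower in KO, against a background of 13.0% (8.07% higher and 4.96% lower), and 0 were called beyond a log2 fold change of 1, where 2.54% of genes were. Of the 10, 6 had an unadjusted p under 0.05, and DESeq2 found 4 past the adjusted threshold and 0 past both. Egln3 was higher in KO control cells by 0.50 ± 0.09 (1.42-fold, adjusted p = 0.000609), Bnip3 by 0.38 ± 0.06 (1.30-fold, adjusted p = 0.000198) and Pdk1 by 0.21 ± 0.05 (1.16-fold, adjusted p = 0.0119), and Hk2 was lower, at -0.26 ± 0.05 (adjusted p = 0.00274). The Pdk1 difference failed without WT control replicate 1 (0.19, adjusted p = 0.0696) or KO control replicate 3 (0.20, 0.0516). Libraries of the genotypes did not overlap for 6 genes, 5 higher (these 3, Ankrd37 and Pgk1) and 1 lower (Hk2), against 25.9% of all genes, 15.6% higher and 10.3% lower. The differences of Ankrd37 (0.39 ± 0.14, adjusted p = 0.0709) and Pgk1 (0.10 ± 0.05, 0.181) did not pass. This comparison shares the control libraries with the interaction, so the 2 are not independent.

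In senescent cells 2 of the 10 genes were higher in KO and none lower, against 23.7% of all genes that passed (11.9% higher and 11.8% lower), and 0 were called, where 3.48% were; 3 had an unadjusted p under 0.05, and DESeq2 found 3 past the adjusted threshold and 0 past both. Epas1 was higher by 0.32 ± 0.11 (1.25-fold, adjusted p = 0.0332) and Ldha by 0.19 ± 0.06 (1.14-fold, adjusted p = 0.0184). Both passed narrowly: Epas1 failed with any senescent library but KO senescent replicate 2 left out (0.28 to 0.37, adjusted p 0.0534 to 0.134), and Ldha failed without WT senescent replicate 1 (0.18, 0.0701), WT senescent replicate 2 (0.18, 0.0735) or KO senescent replicate 3 (0.15, 0.0874). Pgk1, at 0.12 ± 0.05 (adjusted p = 0.0663), passed by DESeq2 (0.15, 0.00568). Bnip3 (-0.03 ± 0.06, adjusted p = 0.744), Egln3 (0.03 ± 0.10, 0.841), Pdk1 (-0.06 ± 0.06, 0.476) and Hk2 (-0.04 ± 0.06, 0.659), which differed between genotypes in control cells, overlapped in senescent cells. The senescent libraries of the genotypes did not overlap for 3 genes, Epas1, Ldha and Pgk1, all higher in KO, against 42.0% of all genes, 21.0% in each direction.

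Most listed HIF targets were lower in senescent cells. The 60 targets listed include 8 members. They also include enzymes of the glycolysis list, such as Tpi1, Eno1 and Gapdh, which remain when the members are left out, so the lists overlap. Of the 60 targets, 59 were tested. In WT 41 were lower and 9 higher in senescent cells, where 27.0% of all genes were lower and 29.2% higher, and in KO 42 were lower and 11 higher, where 28.6% and 28.5% were. Without the 8 members, 33 of 51 were lower and 9 higher in WT (median log2 fold change -0.41) and 34 lower and 11 higher in KO (-0.52), and by the interaction 14 of the 51 had a lower and 8 a higher response in KO than in WT, against 11.7% and 9.24% of all genes. With total counts 33 of the 59 were lower and 11 higher in WT, and 39 lower and 11 higher in KO. Besides Slc16a3, the targets that fell most were Ak4 (-1.48 ± 0.07) and P4ha2, a collagen prolyl hydroxylase (-1.37 ± 0.05), in WT, and Zfp395 (-1.62 ± 0.09) and P4ha2 (-1.58 ± 0.05) in KO.

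Some targets went the other way. Hmox1, a heme oxygenase also induced by oxidative stress, was at 152, 138 and 160 CPM in the WT control and 308, 296 and 297 CPM in WT senescent libraries, and at 100, 89.8 and 87.2 CPM in KO control and 329, 304 and 372 CPM in KO senescent libraries. It rose by 1.00 ± 0.07 in WT (adjusted p = 3.38e-10) and by 1.86 ± 0.07 in KO (4.06e-14). Adm, the gene of the vasodilator adrenomedullin, rose by 1.14 ± 0.09 in KO (adjusted p = 4.5e-09). It was also higher in senescent cells of WT, at 25.0 to 33.54 CPM in control and 53.04 to 62.56 CPM in senescent libraries. Car9, a carbonic anhydrase used as a hypoxia marker, had a log2 fold change of -0.25 ± 0.11 in WT (adjusted p = 0.0593) and fell by 1.14 ± 0.11 in KO (9.26e-07), and Vegfa fell in WT by 0.27 ± 0.05 (0.000248) and in KO fell by 0.19 ± 0.05 (0.00406).

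**Figure D5:**
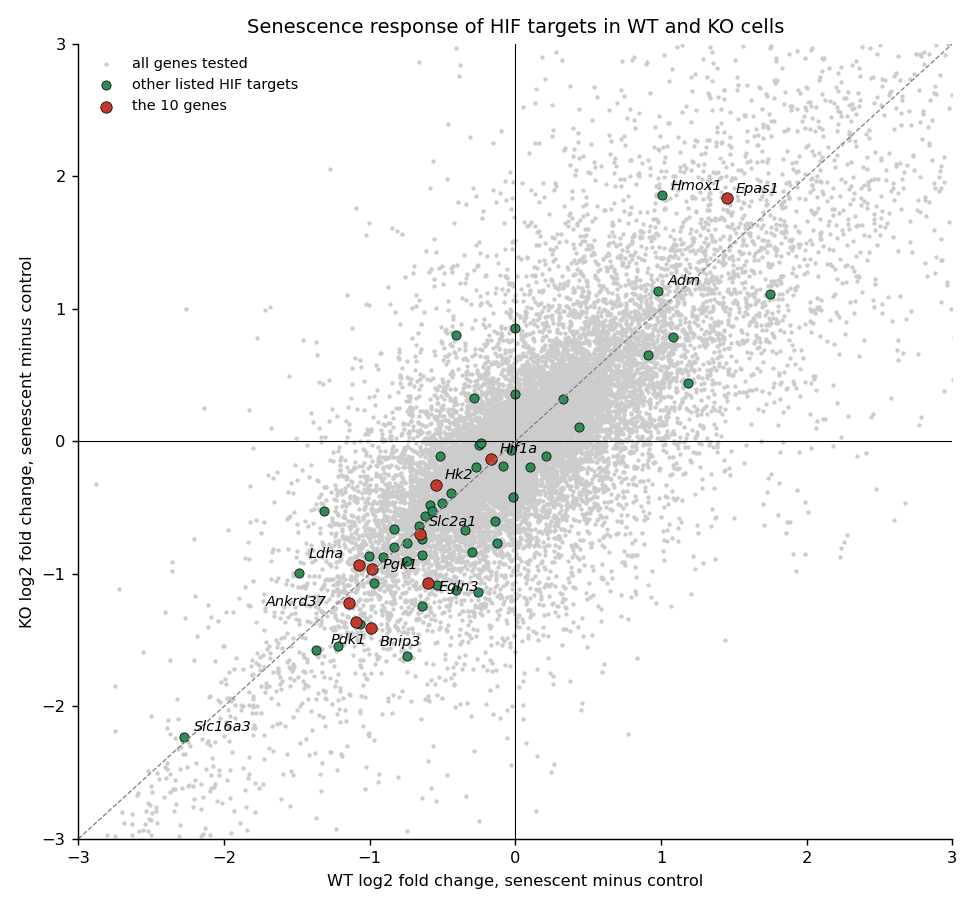
Log2 fold change of senescent over control cells in WT (x axis) and KO (y axis) for all genes tested (grey), the other listed HIF targets (green) and the 10 genes (red); the dashed line marks equal change, and genes beyond 3 on either axis are not drawn. Most targets lie in the lower left, and Epas1, Hmox1 and Adm in the upper right.

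The members other than Epas1 went up and down together across libraries, Hif1a and Hk2 less closely than the rest. Over the 12 libraries, which fall into 2 states, Pearson's r of log2 CPM was 0.996 for Pgk1 with Ldha, 0.985 for Pdk1 with Bnip3 and 0.952 for Bnip3 with Egln3. It was lower for Hk2, from 0.659 with Egln3 to 0.882 with Ldha, and for Hif1a, from 0.689 with Ankrd37 to 0.797 with Pdk1, Epas1 left aside. Epas1 had negative values with all other members, from -0.977 with Pdk1 to -0.725 with Hif1a. These values describe libraries that share the same control and senescent groups. Among 10842 genes at 5 CPM or more, and outside the lists, the gene most like each of 9 members by r was Prelid1 for Ldha (0.998), Marveld1 for Pgk1 (0.997), Pxdn for Pdk1 (0.997), Cope for Slc2a1 (0.993), Fam49a for Epas1 (0.991), Meg3 for Egln3 (0.990), Cd276 for Ankrd37 (0.986), Slc19a1 for Hk2 (0.978) and Pde4dip for Hif1a (0.945). Pxdn and Meg3, like Pdk1 and Egln3, were highest in KO control cells, with means of 401 and 588 CPM against 323 and 443 CPM in WT control.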

How the data were processed

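Poly(A) RNA-seq libraries were made and sequenced as paired reads by a service provider. Per the labels and the methods, reads were trimmed with Trimmomatic (0.36), mapped with STAR (2.5.2b) to GRCm38, and uniquely mapped reads over exons were counted per gene with featureCounts; the strand setting and annotation release are not given in the sources used here. The deposited values were raw counts, in 1 table per genotype. Of the 49315 identifiers, 49056 were matched to symbols and coordinates in GENCODE vM21.

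Counts of all 12 libraries were fitted together in edgeR (4.0.16, R 4.3.3), with 1 mean per group, genes filtered by filterByExpr, TMM factors, the quasi-likelihood F-test and Benjamini-Hochberg adjustment over 17416 genes. A gene passed at an adjusted p below 0.05 and was called when its log2 fold change was also beyond 1. SE was the log2 fold change over the square root of F. The script was tested on simulated data. Alternatives were DESeq2 (1.42.0), its size factors, total counts, no filter, replicate blocks, 6 libraries only and each library left out.

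The members, although chosen by name, and the gene lists were chosen with earlier results of these data known. Named were the 10 genes, Arntl and the members' paralogs, up to 3 genes per list, comparison and direction (passed, at 5 CPM or more), of which some are described here, and the gene with the highest r to each member (2 genes that the rule names are not reported here); Vegfa, Eno1, Pgk2, Hif1an and the marker genes shown were added as examples after their values were seen.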

Additional observations from a re-analysis of the deposited data

Results flagged for a closer look

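The senescence response of 4 of the 10 genes differed between genotypes by the interaction test of edgeR, with Benjamini-Hochberg adjustment over all genes tested. The response, senescent minus control on the log2 scale, was lower in KO than in WT by -0.41 for Bnip3 (adjusted p = 0.00212), by -0.47 for Egln3 (0.0142) and by -0.27 for Pdk1 (0.0163), and higher by 0.22 for Hk2 (0.0499). In each case the control libraries of the genotypes did not overlap and the senescent libraries did: Bnip3, for example, was at 247 to 257 CPM in KO control and 184 to 209 CPM in WT control libraries, and at 85.2 to 102 CPM and 94.6 to 99.7 CPM in senescent libraries. Summed chondrocyte markers differed between genotypes as well, at 5319 to 7397 CPM in KO control and 8052 to 10070 CPM in WT control libraries, and at 723 to 837 CPM and 2247 to 2597 CPM in senescent libraries, and their part in these differences was not tested.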

How the results depend on the processing

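Of the 50 log2 fold changes (10 genes in 5 comparisons), 29 kept their direction and their side of the threshold under every setting run for them, which were 7 other settings (6 for the interaction, which needs all libraries) and 12 fits with a library left out. The number of genes called in WT was 4 and went to 1 with total counts, since the median of all genes then moved from 0.02 to 0.19 in WT (in KO from close to 0 to 0.15), and it was 4 to 6 with a library left out (6 without WT control replicate 1). Without the fold threshold the counts were 10 in WT, 10 in KO, 4 for the interaction, 4 for KO against WT in control cells and 2 in senescent cells. With total counts, genes of all tested that passed were 7000 higher and 3213 lower in WT, against 5093 and 4702 with TMM, and 6703 and 3618 in KO, against 4964 and 4983. Total counts reversed Hif1a in KO (0.0214) and, between the senescent groups, Hif1a (-0.024), Slc2a1 (-0.0263) and Egln3 (-0.0021). With total counts Hif1a no longer passed in WT (-0.0008, adjusted p = 0.992) or in KO (adjusted p = 0.762). Nor did the Hk2 interaction (0.20, adjusted p = 0.0636) or Epas1 between senescent groups (0.29, 0.0617). The Hk2 interaction also failed with no filter (0.21, 0.146).

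Leaving out a library reversed values that had not passed. The ranges were -0.0177 to 0.0666 for Hif1a, -0.0050 to 0.0554 for Pgk1 and -0.17 to 0.0509 for Ankrd37 in the interaction, -0.0547 to 0.0297 for Hif1a, -0.19 to 0.0429 for Epas1 and -0.0246 to 0.0795 for Ldha between control groups, and -0.0035 to 0.0398 for Hif1a, -0.0144 to 0.0419 for Slc2a1 and -0.0884 to 0.0387 for Bnip3 between senescent groups.

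Same-numbered replicates did not deviate together (correlations -0.125 to 0.127, with 6 of 12 libraries closest to their own number), so the numbers were not taken as pairs. A replicate block over all libraries left the number called at 4 in WT, 5 in KO and 0 elsewhere, and with a block within each genotype 3 results no longer passed the adjusted p, Hif1a in KO (-0.13, adjusted p = 0.0726), the Hk2 interaction (0.22, 0.0835) and Epas1 between senescent groups (0.32, 0.055). The cause of these changes was not tested. Depth limits Ankrd37 and Epas1 most, at 3.10 to 21.0 CPM.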
